A study of Mus musculus with 25 samples.

Results

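Pituitaries of mice in which RB had been knocked down for 6 weeks and then released for 6 weeks (12w-res, 5 mice) were compared with pituitaries taken after 6 weeks of knockdown, the state at which release began (6w+dox, 3 mice). These 8 libraries were chosen by their treatment labels from the 12 of the long-term experiment, out of 25 in the whole series. The other 4 long-term mice stayed on doxycycline (dox) for 12 weeks (12w+dox); they entered the same fit, and their values are set beside those of the 12w-res mice where both are of interest. The question was how the transcriptome of an established lesion differs, gene by gene, once Rb1 is expressed again.

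Every mouse carried the shRb alleles, an rtTA activator under the broadly active Rosa26 promoter and a dox-inducible shRNA linked to GFP, shRb5, inserted at Col1a1. All descended from 1 embryonic stem cell clone with 1 shRNA, and the shRNA can act in any cell that expresses rtTA. Mice without dox or without the shRNA were not analysed here. The 6w+dox mice were 3 females that drank dox for 6 weeks, and the 12w-res mice were 3 females (replicates 3 to 5) and 2 males (replicates 1 and 2) that drank dox for 6 weeks and then water without dox for 6 weeks. The sucrose given with dox was left out of that water. The 12w-res mice were thus also 6 weeks further from the start of treatment, and the release of RB and the elapsed time cannot be told apart in this comparison alone. The 12w+dox mice (2 females and 2 males) share that elapsed time but not the release. The libraries were whole-pituitary, poly(A)-selected and paired-end, and in such bulk samples fewer cells of a type and less RNA per cell cannot be told apart.

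RB, the product of Rb1, binds E2F transcription factors and holds their target genes, which encode the machinery of DNA replication and nucleotide synthesis, in a repressed state until cyclin-dependent kinases phosphorylate it. The related proteins p107 (Rbl1) and p130 (Rbl2) act with E2F4 and the MuvB core in the DREAM complex, which represses both replication genes and, through the CHR promoter element, genes of mitosis. In mice the cells most prone to tumors after loss of RB are the melanotrophs of the intermediate lobe, which make the prohormone POMC and cleave it with PCSK2 into melanocyte-stimulating hormone.

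The site targeted by shRb5 is shown because the comparison starts from its effect on Rb1. It lies on the minus strand of chr14:73206076-73206096 (GRCm38, the build called mm10) in the coding sequence of exon 22 of the 27 exons of Rb1, and it matched 1 gene in the sense direction over all annotated transcripts. Capitals mark the whole target, which the guide strand pairs with.
shRb5 target site: GAGGAGTTTGATTCCATTATA

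Some libraries stood apart. Reads on genes, recovered from the deposited values, numbered 19066053 to 22384365 in the 6w+dox libraries and 21830031 to 26505869 in the 12w-res libraries. Pomc alone took 32.2%, 19.97% and 13.6% of the reads in 6w+dox replicates 1, 2 and 3 and from 39.1% to 43.2% in the 12w-res mice. The 6w+dox mice also differed more from each other (chi-square per degree of freedom over all genes from 88.0 to 219 for their 3 pairs) than the 12w-res mice did (11.2 to 39.8 for 10 pairs), and 12w-res replicate 1 was the farthest from the rest of its group. Among the 6w+dox mice, all labelled female, Xist ranged from 85.2 to 2330 FPM. For most of the genes named, results that depend on 1 of these mice are given with and without it. The labels do not say which samples shared a litter or a cage, so the p-values measure the spread between these samples.

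Levels are given in FPM, reads scaled by the authors' size factors and the library size, with no division by gene length, so levels are compared between mice and not between genes. A gene is called higher or lower at a Benjamini-Hochberg adjusted p under 0.05 in limma and an absolute log2 fold change over 1, both on log2(FPM + 0.5), which understates the change of low genes. Of 15315 genes tested, 890 (5.81%) were higher in 12w-res and 892 (5.82%) were lower. The median log2 fold change over all genes was -0.02. More of the large changes were decreases, since 79 of the lower genes but 37 of the higher genes changed over 8-fold. The 5 and 3 mice did not overlap in 813 of the called higher and 811 of the called lower genes, where 16.9% of all genes were higher and 15.9% lower without overlap. The counts of each list below are to be read against these shares of all genes. When each library was scaled to its total of reads, Pomc included, the median of all genes moved to -0.33 and the split became 497 higher against 1638 lower, so directions of small changes are relative to the size-factor scale.

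Rb1 itself (chr14:73192858-73325951, minus strand) was higher in every 12w-res mouse. It stood at 1.86, 2.54 and 5.09 FPM in the 6w+dox mice and 16.1, 17, 20.3, 19.2 and 18.2 FPM in the 12w-res mice. The means were 3.16 ± 1.70 (SD, n = 3) and 18.2 ± 1.66 (SD, n = 5), a fitted difference of 5.44-fold on the log2(FPM + 0.5) scale (log2 fold change 2.44, SE 0.24, adjusted p = 5.61e-06), and the exact two-sided permutation test over the 8 mice gave p = 0.0357, the smallest that 5 against 3 mice can give. The groups did not overlap, and the highest 6w+dox value was in replicate 3. In mice still on dox at 12 weeks Rb1 was at 3.45, 2.42, 2.93 and 4.05 FPM, a log2 fold change of 0.10 from the same 6w+dox mice.

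**Figure D1:**
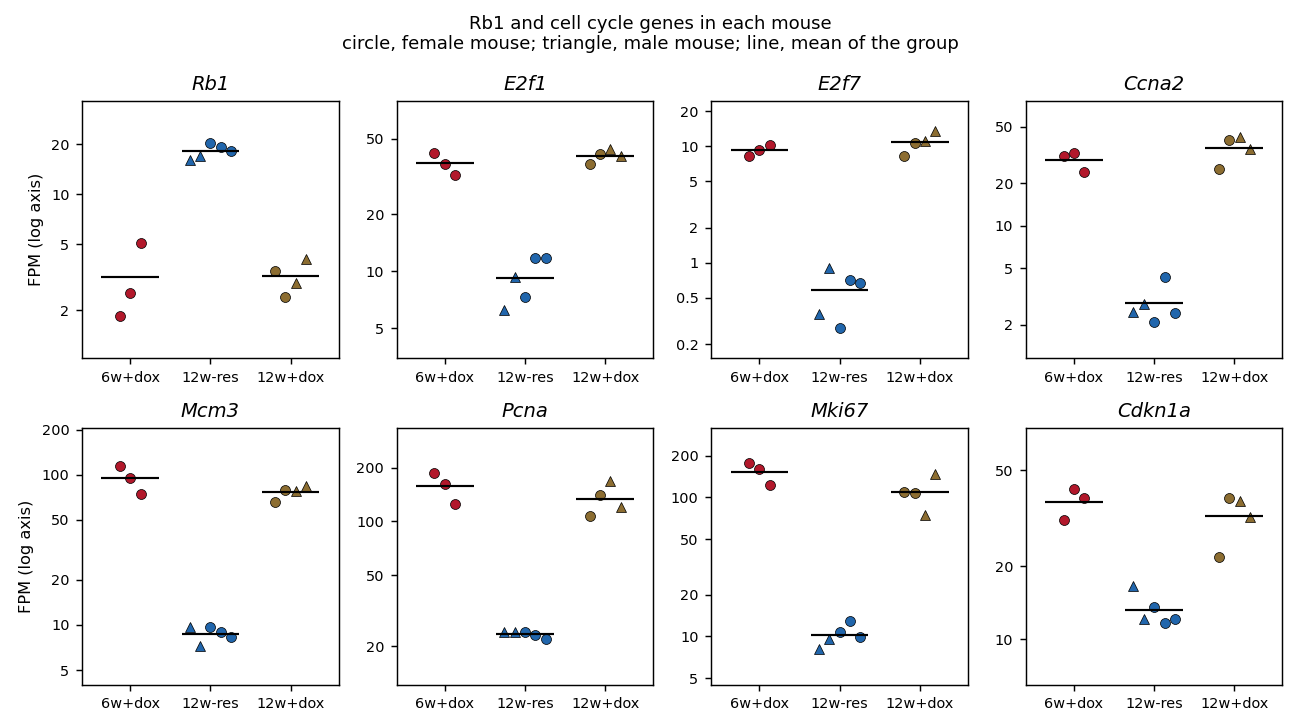
Level of Rb1 and 7 cell cycle genes in each mouse, in FPM on log axes, for the 6w+dox, 12w-res and 12w+dox groups (circles, females; triangles, males; lines, group means). Rb1 is highest in the 12w-res mice, at 16.1 to 20.3 FPM, and the other 7 genes are lowest in them, with no overlap with the 6w+dox mice.

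Among 20 genes of the RB, E2F and DREAM group, Rb1 was the 1 called higher and 7 were called lower, against 5.81% and 5.82% of all genes. The median of the group was -0.48. The fall was large for the repressor E2Fs, E2f7 and E2f8, which are themselves E2F targets. E2f7 was at 8.27, 9.35 and 10.3 FPM in the 6w+dox mice and 0.364, 0.898, 0.273, 0.708 and 0.663 FPM in the 12w-res mice (log2 fold change -3.21, SE 0.23, adjusted p = 2.13e-07). E2f8 was at 10.5, 19.7 and 12.3 FPM in the 6w+dox mice and 0.832, 0.528, 1.18, 1.18 and 0.553 FPM in the 12w-res mice (log2 fold change -3.42, SE 0.24, adjusted p = 2.13e-07). Neither gene overlapped between the groups. Against the same 6w+dox mice the 12w+dox mice had log2 fold changes of 0.20 and -0.03, not called.

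The activator E2F genes had unlike fold changes. E2f1 fell, from 42.3, 36.9 and 32.1 FPM to 6.29, 9.30, 7.33, 11.7 and 11.7 FPM (log2 fold change -1.97, SE 0.19, adjusted p = 3.57e-06), and the groups lay far apart. E2f3 had a log2 fold change of -0.62 (adjusted p = 0.0234 in limma), which is under the fold required for a call although its groups did not overlap. E2f2 was at 11.1, 17.9 and 13.4 FPM in the 6w+dox mice and 10.1, 19.4, 13.9, 18.6 and 14.8 FPM in the 12w-res mice, overlapping ranges with a log2 fold change of 0.11 (adjusted p = 0.787 in limma) that was -0.05 without 6w+dox replicate 1. Foxm1, which drives genes of late G2 and mitosis together with the MuvB core, fell by 2.33 on the log2 scale (adjusted p = 7.52e-07 in limma).

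The genes of the other pocket proteins had fold changes of opposite sign. Rbl1, an E2F target, fell, from 11.4, 17.5 and 31.3 FPM to 7.33, 7.50, 6.96, 6.20 and 8.07 FPM (log2 fold change -1.30, SE 0.24, adjusted p = 9.13e-04). The 6w+dox value of replicate 3 was the highest, and without that mouse the log2 fold change was -0.93, under the fold required for a call. Rbl2 was at 18.5, 22.8 and 29.2 FPM in the 6w+dox mice and 30.2, 37.5, 36.6, 37.1 and 38.2 FPM in the 12w-res mice, with no overlap and a log2 fold change of 0.62 (adjusted p = 0.00488 in limma), also too small for a call.

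Of 17 G1/S cyclins, kinases and CDK inhibitors 8 fell and none rose, with a median of -0.97. Ccna2, the S phase cyclin, was at 31.1, 32.8 and 23.8 FPM in the 6w+dox mice and 2.44, 2.80, 2.09, 4.37 and 2.43 FPM in the 12w-res mice (log2 fold change -3.18, SE 0.22, adjusted p = 1.65e-07). Its catalytic partner Cdk2 fell by 2.28 on the log2 scale and cyclin E1 (Ccne1) by 1.51 (adjusted p = 4.41e-06 and 2.45e-05 in limma). Ccne2 was at 2.39, 3.79 and 6.58 FPM in the 6w+dox mice and 0.676, 2.64, 2.09, 1.83 and 2.16 FPM in the 12w-res mice; the ranges overlapped and its log2 fold change of -0.97 was just short of a call. It passed without 12w-res replicate 2 (-1.09) or without 6w+dox replicate 1 (-1.28).

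CDK inhibitor genes were mostly lower as well. Cdkn1a, the p53 target that encodes p21, was at 31, 41.8 and 38.5 FPM in the 6w+dox mice and 16.6, 12, 13.6, 11.6 and 12.1 FPM in the 12w-res mice (log2 fold change -1.46, SE 0.18, adjusted p = 4.93e-05), so every 12w-res mouse lay below every 6w+dox mouse. Cdkn2c, which encodes p18INK4C, fell by 1.58 on the log2 scale, Cdkn2d (p19INK4D) by 1.25 and Cdkn1c (p57) by 1.77, with adjusted p of 2.27e-05, 7.58e-04 and 3.01e-04 in limma. Cdkn2a, which encodes p16INK4A and p19ARF, was at 7.57, 8.19 and 5.51 FPM in the 6w+dox mice and 3.33, 4.12, 2.32, 3.31 and 3.32 FPM in the 12w-res mice, with no overlap. Its log2 fold change of -1.01 lay at the edge of a call and was -0.91 without 12w-res replicate 3, -0.95 without 6w+dox replicate 1 and -0.90 without 6w+dox replicate 2. Cdkn1b (p27) at -0.55 and Cdkn2b (p15INK4B) at 0.74 on the log2 scale were not called.

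DNA replication genes were lower as a group. Of 51 measured, 40 fell and none rose, 45 had no overlap between the groups, and the median log2 fold change was -1.73, between -1.90 and -1.63 for the 5 single 12w-res mice. Mcm3, a subunit of the replicative helicase, was at 114, 95.8 and 73.8 FPM in the 6w+dox mice and 9.62, 7.19, 9.74, 8.97 and 8.29 FPM in the 12w-res mice (log2 fold change -3.35, SE 0.15, adjusted p = 1.34e-08). Pcna, the sliding clamp of the polymerases, was at 186, 162 and 125 FPM in the 6w+dox mice and 24.0, 24.0, 24.0, 23.0 and 21.8 FPM in the 12w-res mice (log2 fold change -2.71, SE 0.15, adjusted p = 2.86e-08). The 12w-res values of Pcna lay within a narrow band well under the lowest 6w+dox mouse.

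Clspn, a mediator of the replication checkpoint, and Pole, the catalytic subunit of the leading strand polymerase, fell by 3.68 and 3.35 on the log2 scale, and Chaf1b, a histone chaperone at the fork, by 3.92 (adjusted p = 4.09e-08, 1.49e-06 and 9.62e-08 in limma). The 11 members that were not called included 5 origin recognition complex genes, Orc1 to Orc5. Among 18 nucleotide synthesis genes 8 fell and none rose, with a median of -0.60. They included Rrm2, the regulated subunit of ribonucleotide reductase (-2.88), thymidine kinase Tk1 (-2.33), Dut (-2.28) and thymidylate synthase Tyms (-2.22).

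Mitosis genes showed the deepest decrease of the lists. Of 73 measured 67 fell and none rose, 71 had no overlap, and the median was -3.25. The summed level of the list was 1776.5 to 2568 FPM in the 6w+dox mice and 374 to 416 FPM in the 12w-res mice. Mki67, the gene of the Ki67 proliferation antigen, was at 177, 161 and 122 FPM in the 6w+dox mice and 8.06, 9.62, 10.7, 12.9 and 9.95 FPM in the 12w-res mice (log2 fold change -3.84, SE 0.20, adjusted p = 1.74e-08), and the group means were 153 ± 28.04 (SD, n = 3) and 10.3 ± 1.76 (SD, n = 5) FPM.

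Pbk, a mitotic kinase, had the largest fall of the list, from 50.8, 43.5 and 28.3 FPM to 1.40, 0.687, 0.774, 0.945 and 0.608 FPM (log2 fold change -4.89, SE 0.25, adjusted p = 1.74e-08). The kinetochore genes Spc25 (-4.55) and Cenpf (-4.14), the anaphase promoting complex partner Ube2c (-4.18), Cdca3 (-4.13) and securin, Pttg1 (-3.95), were lowered on the log2 scale to a like degree. In the 12w+dox mice, whose contrast uses the same 6w+dox mice, 0 of the 51 replication genes and 1 of the 73 mitosis genes were called lower, where 4.04% of all genes were, and the medians were 0.06 and -0.07.

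Some repair and chromatin genes fell too. Of 34 homologous recombination and Fanconi genes 18 fell and none rose, with a median of -1.14. Rad51c, a gene of homologous recombination, was at 15.5, 15.1 and 15.9 FPM in the 6w+dox mice and 6.86, 5.18, 7.01, 6.79 and 6.24 FPM in the 12w-res mice (log2 fold change -1.22, SE 0.14, adjusted p = 2.94e-05), with both groups tight and apart. Larger decreases were seen for Rad51ap1, which fell from 10.8, 7.84 and 8.61 FPM to 0.884, 0.740, 0.319, 1.30 and 0.442 FPM, and the exonuclease Exo1 (-2.61). Of 23 Polycomb and DNA methylation genes 5 fell and none rose, with a median of -0.53, among them the maintenance methylation factor Uhrf1 (-3.26), the H3K27 methyltransferase Ezh2 (-2.15) and its partner Phf19 (-1.94).

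Promoter windows are shown for the 3 called genes of the replication and RB groups that fell most among those whose window holds an E2F motif, to show where the letters lie. Windows on 1 chromosome were left out of this choice. Chaf1b fell more (-3.92), and no window with a match was found for it. That does not tell a window without the letters from the lack of a window. The letters searched were TTTCCCGC, TTTGGCGC and TTTCGCGC on both strands, in RefSeq windows from 250 bases before to 50 bases after the start (GRCm38.p6). Capitals mark each match, and the start itself is base 251 of each line. The windows lie at chr4:126556730-126557029 on the plus strand for Clspn, with 1 match from base 22 after the start, at chr1:20820263-20820562 on the minus strand for Mcm3, with 2 matches from bases 20 and 39, and at chr10:110745189-110745488 on the plus strand for E2f7, with 1 match from 198 bases before the start.
Clspn: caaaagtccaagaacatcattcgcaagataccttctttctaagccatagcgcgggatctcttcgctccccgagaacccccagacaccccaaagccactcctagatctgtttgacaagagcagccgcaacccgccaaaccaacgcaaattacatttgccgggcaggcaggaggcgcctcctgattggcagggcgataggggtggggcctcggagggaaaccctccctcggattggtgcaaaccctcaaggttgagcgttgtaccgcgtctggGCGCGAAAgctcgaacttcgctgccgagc
Mcm3: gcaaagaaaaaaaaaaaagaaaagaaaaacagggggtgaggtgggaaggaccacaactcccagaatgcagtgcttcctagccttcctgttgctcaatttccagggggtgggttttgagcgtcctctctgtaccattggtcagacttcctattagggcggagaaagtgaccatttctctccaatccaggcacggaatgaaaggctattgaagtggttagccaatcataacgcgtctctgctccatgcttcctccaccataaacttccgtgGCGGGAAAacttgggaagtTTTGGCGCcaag
E2f7: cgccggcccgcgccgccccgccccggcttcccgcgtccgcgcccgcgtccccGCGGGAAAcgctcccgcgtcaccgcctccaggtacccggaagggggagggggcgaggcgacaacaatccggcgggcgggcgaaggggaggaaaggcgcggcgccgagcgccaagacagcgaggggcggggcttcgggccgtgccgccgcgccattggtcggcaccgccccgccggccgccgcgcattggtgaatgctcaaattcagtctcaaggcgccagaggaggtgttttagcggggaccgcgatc

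A window was found for 11536 of the 15315 genes. The E2F letters stood in 3.83% of these genes, in 10.3% of the called lower genes (68 of 663) and in 1.61% of the called higher genes (10 of 622). They stood in 16 of 42 replication genes (38.1%), in 6 of 15 RB, E2F and DREAM genes (40.0%), in 0 of 17 nucleotide synthesis genes and in 7.58% of the lower genes outside the cell cycle lists. The CHR letters TTTGAA and TTCGAA, searched on both strands, stood in 16.0% of all genes, in 24.1% of the lower genes and in 16.9% of the higher genes. They stood in 45 of 61 mitosis genes (73.8%) and in 19.8% of the lower genes outside the cell cycle lists. A match is a description of the letters in a window and not a measured binding site.

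**Figure D2:**
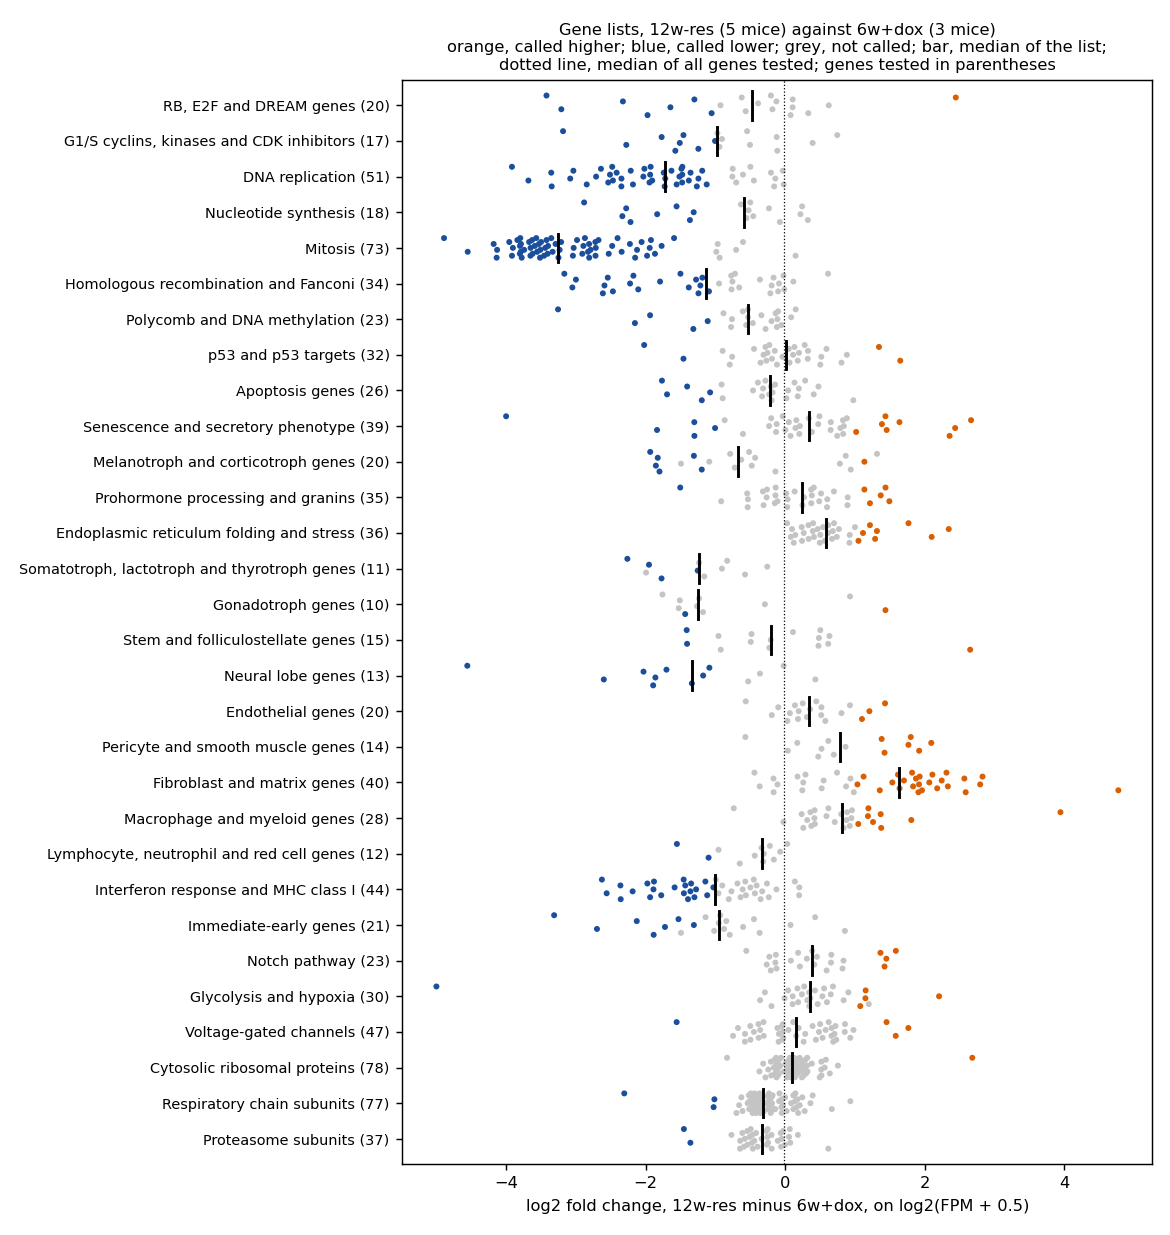
Log2 fold change of every measured member of 30 gene lists, 12w-res minus 6w+dox, with called genes in orange (higher) and blue (lower), the median of each list as a bar and the median of all genes as a dotted line. All 51 replication genes and 72 of 73 mitosis genes lie left of 0, with medians of -1.73 and -3.25, and 35 of 40 fibroblast and matrix genes lie right of it, with a median of 1.63.

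p53 target genes did not follow 1 direction. Of 32 measured 2 were called higher and 2 lower, with a median of 0.01 that became -0.32 on scaling to total reads. The shares were near those of all genes. Trp53 was at 69.9, 75.7 and 60.9 FPM in the 6w+dox mice and 51.0, 33.8, 47.8, 35.9 and 35.6 FPM in the 12w-res mice; the groups did not overlap, but the log2 fold change of -0.76 (adjusted p = 0.00118 in limma) was too small for a call, and the 12w+dox mice stood at 45.1, 38.9, 44.1 and 43.7 FPM. Ccng1, cyclin G1, rose from 90.5, 89.3 and 72.2 FPM to 202, 271, 286, 304 and 262 FPM (log2 fold change 1.65, SE 0.13, adjusted p = 7.61e-07). Sesn2, a stress-induced regulator of TORC1, was at 9.02, 15.1 and 16.6 FPM in the 6w+dox mice and 65.9, 28.6, 26.3, 25.3 and 36.6 FPM in the 12w-res mice (log2 fold change 1.34, SE 0.28, adjusted p = 0.00212), with replicate 1 far above the other 12w-res mice. Pidd1, whose product assembles the caspase 2 platform, fell, from 5.82, 8.91 and 14 FPM to 0.728, 2.22, 1.64, 2.66 and 2.65 FPM (log2 fold change -2.02, SE 0.33, adjusted p = 3.44e-04).

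Apoptosis genes were lower where they changed. Of 26 measured 5 fell (19.2%, against 5.82% of all genes) and none rose, with a median of -0.22. They included the BH3-only gene Bik (-1.77) and the p53 relative Trp73 (-1.41), which was at 3.74 FPM or less in these 8 mice.

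In the list of senescence and secretory phenotype genes, 8 of 39 rose and 5 fell, with a median of 0.34. The 8 included metalloproteases and an inhibitor of them. Timp2, a metalloprotease inhibitor, rose from 164, 156 and 136 FPM to 524, 701, 757, 1263 and 1067 FPM (log2 fold change 2.43, SE 0.26, adjusted p = 1.11e-05), every 12w-res mouse above every 6w+dox mouse. Mmp12, the macrophage elastase, rose by 2.66 on the log2 scale with a wide spread, from 8.08 to 64.8 FPM in the 12w-res mice (adjusted p = 0.00322 in limma). Spp1, osteopontin, at 1.44 on the log2 scale, had overlapping groups. With 6w+dox replicate 2 left out it was no longer called (1.28, adjusted p = 0.0599 in limma).

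The members that fell were of other kinds. Hmgb2, a chromatin protein that cycling cells make, was at 285, 183 and 92.8 FPM in the 6w+dox mice and 12.5, 9.83, 11.3, 10.2 and 7.46 FPM in the 12w-res mice (log2 fold change -4.00, SE 0.32, adjusted p = 7.52e-07), and Cdkn2a was given above. Outside the lists, Cav1, the caveola coat protein, was at 6.40, 6.81 and 5.75 FPM in the 6w+dox mice and 18.9, 36.2, 31.5, 42.9 and 31.8 FPM in the 12w-res mice (log2 fold change 2.22, SE 0.23, adjusted p = 7.79e-06), and Itga3, the laminin-binding integrin subunit, at 68.0, 68.3 and 50.5 FPM in the 6w+dox mice and 179, 190.2, 188, 212 and 189 FPM in the 12w-res mice (log2 fold change 1.63, SE 0.13, adjusted p = 8.93e-07). Neither was called in the 12w+dox mice (0.06 and 0.65).

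Matrix genes formed the largest group of increases. Of 40 fibroblast and matrix genes 25 rose (62.5%, against 5.81% of all genes) and none fell, and 30 were higher without overlap (16.9% of all genes were). The median was 1.63, between 1.30 and 1.91 for single 12w-res mice. Their summed level was 1089.5 to 1175.5 FPM in the 6w+dox mice, 2344 to 3847 FPM in the 12w-res mice and 554 to 1419 FPM in the 12w+dox mice. Fn1, fibronectin, was at 5.18, 6.73 and 5.67 FPM in the 6w+dox mice and 109.9, 101, 226, 227 and 266 FPM in the 12w-res mice, a fitted difference of 27.3-fold (log2 fold change 4.77, SE 0.41, adjusted p = 1.37e-06).

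Fn1 also rose, less, in the mice kept on dox, to 51.2, 28.8, 17.9 and 78.9 FPM (2.61 on the log2 scale), and the difference between 12w-res and 12w+dox was itself past the threshold (log2 fold change 2.16, adjusted p = 5.95e-04 in limma). Col1a1, the main fibrillar collagen chain, rose from 43.4, 34.9 and 25.7 FPM to 196, 138, 263, 289 and 414 FPM (log2 fold change 2.83, SE 0.46, adjusted p = 4.05e-04); the shRNA allele sits at this locus, and whether it touches the level was not tested. Col6a3, a collagen VI chain, rose by 2.79 on the log2 scale. The fibroblast markers Dcn and Pdgfra did not rise with the collagens, at log2 fold changes of -0.44 and -0.17 (adjusted p = 0.314 and 0.735 in limma), with overlapping groups. Pdgfra was at 0.01 without 12w-res replicate 2 and at 0.14 in females alone.

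Some genes of the vessel wall rose as well. Of 14 pericyte and smooth muscle genes 6 rose (42.9%, against 5.81% of all genes) and none fell, with a median of 0.78. Rgs5, a regulator of G protein signalling in pericytes, was at 80.3, 86.8 and 58.2 FPM in the 6w+dox mice and 282, 369, 305, 336 and 299.8 FPM in the 12w-res mice (log2 fold change 2.09, SE 0.22, adjusted p = 7.72e-06). Pdgfrb (1.38), the receptor that recruits pericytes, and Acta2 (1.76), smooth muscle actin, rose on the log2 scale too. Of 20 endothelial genes 3 rose and none fell, with a median of 0.33. The junction genes Pecam1 (0.80) and Cdh5 (0.93) had no overlap between the groups but fell short of a call, which Cdh5 reached without 6w+dox replicate 2 (1.03, adjusted p = 0.033 in limma).

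In the Notch pathway, 4 of 23 genes rose (17.4%, against 5.81% of all genes) and none fell, with a median of 0.39. The 4 were led by the ligand Jag1 (1.58) and by Notch4 (1.45) and Notch3 (1.42), receptors of endothelial and mural cells. Notch3 was at 5.82, 12.6 and 18 FPM in the 6w+dox mice and 22.2, 34.6, 29.4, 31 and 36.8 FPM in the 12w-res mice (adjusted p = 0.0102 in limma), and without 6w+dox replicate 1 its log2 fold change of 0.99 (adjusted p = 0.0616) was no call. Notch1 at 0.45 and its target Hes1 at -0.23 were not called (adjusted p = 0.188 and 0.498 in limma). The endothelial list was at a summed 319 to 383 FPM in the 6w+dox mice and 377.5 to 472.5 FPM in the 12w-res mice, the pericyte list at 220.1 to 279 and 631 to 754 FPM, and their part in these rises was not tested.

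Myeloid genes rose in part. Of 28 measured 8 rose (28.6%, against 5.81% of all genes) and none fell, with a median of 0.82, and their summed level was 476 to 693 FPM in the 6w+dox mice and 789 to 1335 FPM in the 12w-res mice. Lyz2, lysozyme, was at 12.1, 12 and 9.56 FPM in the 6w+dox mice and 169, 104, 288, 202 and 176 FPM in the 12w-res mice (log2 fold change 3.94, SE 0.24, adjusted p = 4.72e-08). The gap was 15.4-fold, and Lyz2 also rose in the mice kept on dox, to 75.9, 55.0, 51.3 and 55.1 FPM. Adgre1, which encodes the F4/80 antigen of macrophages, rose by 1.37 on the log2 scale (adjusted p = 7.28e-04 in limma). The defining genes Csf1r (0.88) and C1qa (0.26) were not called, and C1qa had overlapping groups at 37.0, 41.6 and 27.3 FPM in the 6w+dox mice and 42.4, 36.0, 50.2, 44.8 and 36.6 FPM in the 12w-res mice, with a log2 fold change of -0.07 on scaling to total reads.

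Interferon response and MHC class I genes fell over the same interval. Of 44 measured 22 fell and none rose, 28 had no overlap, and the median was -1.01. Irf7, the transcription factor that amplifies type I interferon, was at 19.0, 34.1 and 21.0 FPM in the 6w+dox mice and 3.59, 5.28, 5.10, 2.01 and 2.38 FPM in the 12w-res mice (log2 fold change -2.63, SE 0.29, adjusted p = 1.51e-05). Isg15, a ubiquitin-like interferon effector, fell from 13, 18.7 and 6.83 FPM to 1.40, 1.8, 2.09, 1.42 and 1.38 FPM (log2 fold change -2.56, SE 0.28, adjusted p = 1.15e-05). Rtp4 (-2.36) and the immunoproteasome subunit Psmb8 (-1.45) were lower too. In the mice kept on dox 9 of the 44 were called lower and 1 higher (4.04% and 3.15% of all genes), and Irf7 differed between 12w-res and 12w+dox (log2 fold change -2.13, adjusted p = 4.06e-05 in limma).

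**Figure D3:**
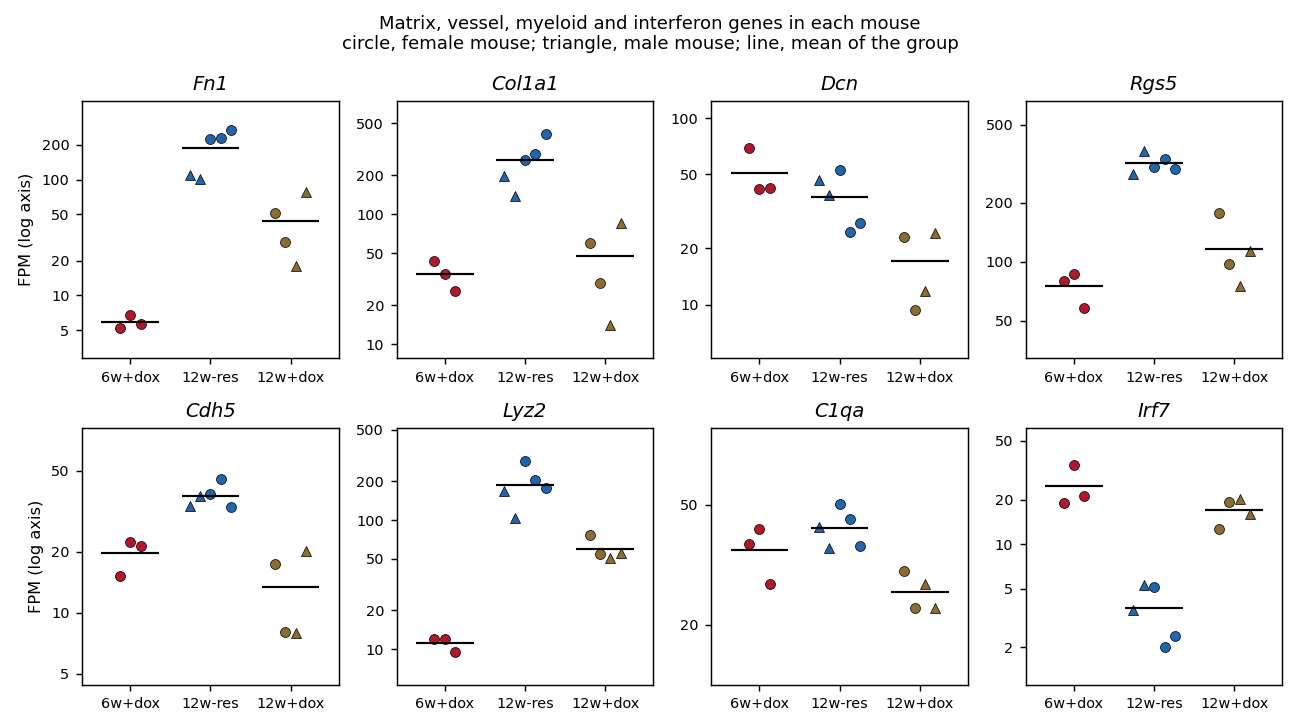
Level of 8 matrix, vessel, myeloid and interferon genes in each mouse, in FPM on log axes (circles, females; triangles, males; lines, group means). Fn1, Col1a1, Rgs5, Cdh5 and Lyz2 are highest in the 12w-res mice, Dcn and C1qa overlap with the 6w+dox mice, and Irf7 is lowest in the 12w-res mice.

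Immediate-early genes, which neurons and endocrine cells induce within minutes of stimulation, were lower in 7 of 21 cases (33.3%, against 5.82% of all genes), with a median of -0.95. In the mice kept on dox the median was close to this, at -0.86, and 3 were called lower, where 4.04% of all genes were. The level of these genes varied widely in the 6w+dox mice. Egr1 was at 1214, 186 and 267 FPM in the 6w+dox mice and 86.6, 36.0, 39.4, 25.9 and 28.3 FPM in the 12w-res mice (log2 fold change -3.31, SE 0.90, adjusted p = 0.012), and without 6w+dox replicate 1 the log2 fold change was -2.497 (adjusted p = 0.0686). Junb likewise fell by 2.13 with that mouse and had a log2 fold change of -1.10 without it (adjusted p = 0.207), and its call was also lost without each of 12w-res replicates 2 to 5, at adjusted p of 0.0576 to 0.066, and with sex as a covariate (adjusted p = 0.0842). Arc, at 83.0, 65.6 and 47.4 FPM in the 6w+dox mice and 11.3, 17.9, 16.6, 17.2 and 23.4 FPM in the 12w-res mice, kept its call when any 1 mouse was left out (log2 fold change -1.89, SE 0.21, adjusted p = 1.75e-05). In the mice kept on dox Arc was called lower too (-1.24), and Egr1 was at -1.88, not called.

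Of 20 melanotroph and corticotroph genes 6 fell and 1, Pcsk2, rose, 15 had a log2 fold change below 0, and the median was -0.68. Pomc, the prohormone gene of both cell types, was at 376655, 199141 and 107477 FPM in the 6w+dox mice and 494555, 452682, 495137, 573321 and 483817 FPM in the 12w-res mice. Every 12w-res mouse lay above every 6w+dox mouse (exact permutation test, two-sided p = 0.0357), and the 6w+dox mice spanned a wide range. In limma the log2 fold change was 1.31 with SE 3.35 and an adjusted p of 0.79. That SE draws on the fitted mean-variance trend at this extreme level and is not the spread of these mice alone. On recovered read counts the call was made, with log2 fold changes of 1.15 in edgeR and 1.13 in DESeq2 (adjusted p = 0.0322 and 0.000996, both Benjamini-Hochberg).

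The melanotroph factor Pax7 was at 106, 117 and 109 FPM in the 6w+dox mice and at 195 to 233 FPM in the 12w-res mice, and the dopamine receptor Drd2, which restrains melanotrophs, at 252, 202 and 222 FPM in the 6w+dox mice and 316, 436, 417, 476 and 419.8 FPM in the 12w-res mice. Both had no overlap, but their log2 fold changes of 0.94 and 0.87 (adjusted p = 3.95e-04 and 0.0017 in limma) were below the fold required. In the mice kept on dox Pax7 and Drd2 rose more and were called higher, each at 1.32 against the same 6w+dox mice. Tbx19, which activates Pomc, had a log2 fold change of -0.48. Crhr1, the receptor for corticotropin-releasing hormone that marks corticotrophs, fell from 11.3, 21.4 and 24.3 FPM to 9.67, 4.28, 5.05, 3.19 and 3.43 FPM (log2 fold change -1.83, SE 0.37, adjusted p = 0.00188). The other decreases included Neurod1 (-1.94), a differentiation factor of corticotrophs, and Hsd11b1 (-1.85), which regenerates active glucocorticoid (adjusted p = 0.00589 and 8.79e-04 in limma). Crhr1, Neurod1 and Hsd11b1 were called lower in the mice kept on dox too (-1.80, -1.84 and -2.26). Avpr1b, the vasopressin receptor of corticotrophs, was called lower (-1.802, adjusted p = 0.0316 in limma) with overlapping groups. It was at 1.11, 8.82 and 9.73 FPM in the 6w+dox mice and 0.221 to 2.42 FPM in the 12w-res mice. Its value without 6w+dox replicate 1 is not given here.

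Genes for hormone processing and secretion were higher in part. Of 35 measured 5 rose (14.3%, against 5.81% of all genes) and 1 fell, with a median of 0.25 that became -0.08 on scaling to total reads. Pam, which amidates peptide hormones, was at 411, 386 and 341 FPM in the 6w+dox mice and 956, 1022, 1018, 1159 and 979.9 FPM in the 12w-res mice (log2 fold change 1.44, SE 0.18, adjusted p = 5.23e-05). Pcsk2 rose from 4031, 3315 and 1563 FPM to 5810.5, 5409.7, 6246, 6986 and 5872 FPM (log2 fold change 1.13, SE 0.32, adjusted p = 0.0132), but without 6w+dox replicate 3 its log2 fold change was 0.73 (adjusted p = 0.0355), no call, and in females alone its adjusted p was 0.0563. The granin-like Vgf (1.49) and the granule GTPase Rab27b (1.37) rose, and Cplx2, a complexin of vesicle fusion, fell from 452, 423 and 288 FPM to 205, 121, 143, 113 and 107 FPM (log2 fold change -1.50, SE 0.20, adjusted p = 6.61e-05).

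Genes of endoplasmic reticulum folding and stress had log2 fold changes above 0 in all 36 cases measured, 23 without overlap (16.9% of all genes were). Of the 36, 8 were called higher (22.2%, against 5.81% of all genes) and none lower, with a median of 0.59. On scaling to total reads 3 were called. Derl3, which draws misfolded proteins out of the endoplasmic reticulum, was at 6.75, 3.79 and 6.66 FPM in the 6w+dox mice and 22.5, 29.4, 30.3, 32.5 and 38.8 FPM in the 12w-res mice (log2 fold change 2.34, SE 0.28, adjusted p = 3.21e-05). Ern1, the stress sensor IRE1, rose from 1.92, 4.99 and 17.3 FPM to 24.7, 30.4, 20.8, 26.9 and 28.2 FPM, by 2.10 on the log2 scale, by 1.42 without 6w+dox replicate 1 and by 2.86 without 6w+dox replicate 3. Edem1 (1.31) and Trib3 (1.77), a target of ATF4, rose as well.

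Genes of the other hormone cells were lower or spread widely. Gh, growth hormone, was at 45882, 80113 and 50015 FPM in the 6w+dox mice and 24746, 6381, 11629.9, 11098 and 11471 FPM in the 12w-res mice (log2 fold change -2.26, SE 0.64, adjusted p = 0.0143), and without 6w+dox replicate 2 the log2 fold change was -2.02 with an adjusted p of 0.0609, and in females alone it was -2.32 (adjusted p = 0.0882 in limma). The mice kept on dox stood lower still, at 7478, 930.3, 2042 and 2317 FPM, and 12w-res differed from them (log2 fold change 2.31, adjusted p = 0.00703 in limma). Prl, prolactin, overlapped between the groups, at 10890.3, 11704 and 9172 FPM in the 6w+dox mice and 5659, 9662, 8245, 10053 and 11697 FPM in the 12w-res mice (log2 fold change -0.26, adjusted p = 0.823 in limma), whereas the 12w+dox mice were at 4940.4, 219, 214 and 332 FPM (log2 fold change of 12w-res against 12w+dox 4.06, adjusted p = 6.10e-04 in limma).

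In all, 4 of 11 somatotroph, lactotroph and thyrotroph genes fell after release, with a median of -1.24. In the mice kept on dox 9 of 11 fell, where 4.04% of all genes did. Tshb, the thyrotropin chain, at -1.77 on the log2 scale (adjusted p = 0.0421 in limma), lost its call without any 1 of 12w-res replicates 2 to 5 or of 6w+dox replicates 2 and 3, at log2 fold changes of -1.88 to -1.29 and adjusted p from 0.0532 to 0.202. Without 6w+dox replicate 1 its log2 fold change was -2.44 (adjusted p = 0.0125), and in females alone its adjusted p was 0.0903. Pou1f1, the transcription factor of these lineages, was at 23.9, 79.6 and 122 FPM in the 6w+dox mice and 34.7, 16.6, 9.15, 12.2 and 12 FPM in the 12w-res mice, with overlap and a log2 fold change of -1.99 (adjusted p = 0.0734 in limma); without 6w+dox replicate 1 it passed (-2.67, adjusted p = 0.0375).

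The gonadotroph hormone genes split the 12w-res group by mouse. Lhb was at 353, 473 and 340.4 FPM in the 6w+dox mice and 1039.6, 327, 71.9, 64.4 and 65.5 FPM in the 12w-res mice, and Fshb at 121, 152 and 215 FPM in the 6w+dox mice and 811, 253, 6.37, 17.5 and 20.4 FPM in the 12w-res mice. The 2 males, replicates 1 and 2, held the highest values of both genes in that group. Neither gene was called, at log2 fold changes of -1.26 and -1.51 (adjusted p = 0.35 and 0.421 in limma). Cga, the chain that these hormones share with thyrotropin, was at 1365, 1511 and 1359.5 FPM in the 6w+dox mice and 2643, 663, 362, 314 and 386 FPM in the 12w-res mice, no call (adjusted p = 0.205 in limma); without 12w-res replicate 1 it passed (-1.77, adjusted p = 0.0365). Sex differed between the groups, and when only the females of all groups were fitted all 3 genes were called lower in limma, Fshb at -3.53 (adjusted p = 3.45e-04), Lhb at -2.51 (adjusted p = 0.00826) and Cga at -1.997 (adjusted p = 0.045). With sex as a covariate they were called as well, at -3.31, -2.47 and -1.84 (adjusted p = 2.90e-04, 0.00357 and 0.0411).

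Neural lobe genes were low after release. Of 13 measured 9 fell and none rose, with a median of -1.34, where 5.82% of all genes fell. In the mice kept on dox 9 fell, where 4.04% of all genes did. Avp, vasopressin, was at 83.1, 28.3 and 28.0 FPM in the 6w+dox mice and 2.6, 0.845, 1.09, 1.24 and 0.884 FPM in the 12w-res mice (log2 fold change -4.56, SE 0.37, adjusted p = 8.18e-07), and the 12w+dox mice stood at 3.11, 1.31, 2.46 and 1.76 FPM. Oxt, oxytocin, fell by 2.6 on the log2 scale and fell by 1.94 without 6w+dox replicate 1, and the pituicyte factor Nkx2-1 fell by 2.03. The summed level of the list was 137 to 265 FPM, 65.3 to 95.5 FPM and 89.6 to 100.4 FPM in the 6w+dox, 12w-res and 12w+dox mice, lower in both later groups than after 6 weeks. The part of this tissue in the other changes was not tested. Sox2, a gene of stem and folliculostellate cells, had a log2 fold change of -0.48 (adjusted p = 0.094 in limma).

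**Figure D4:**
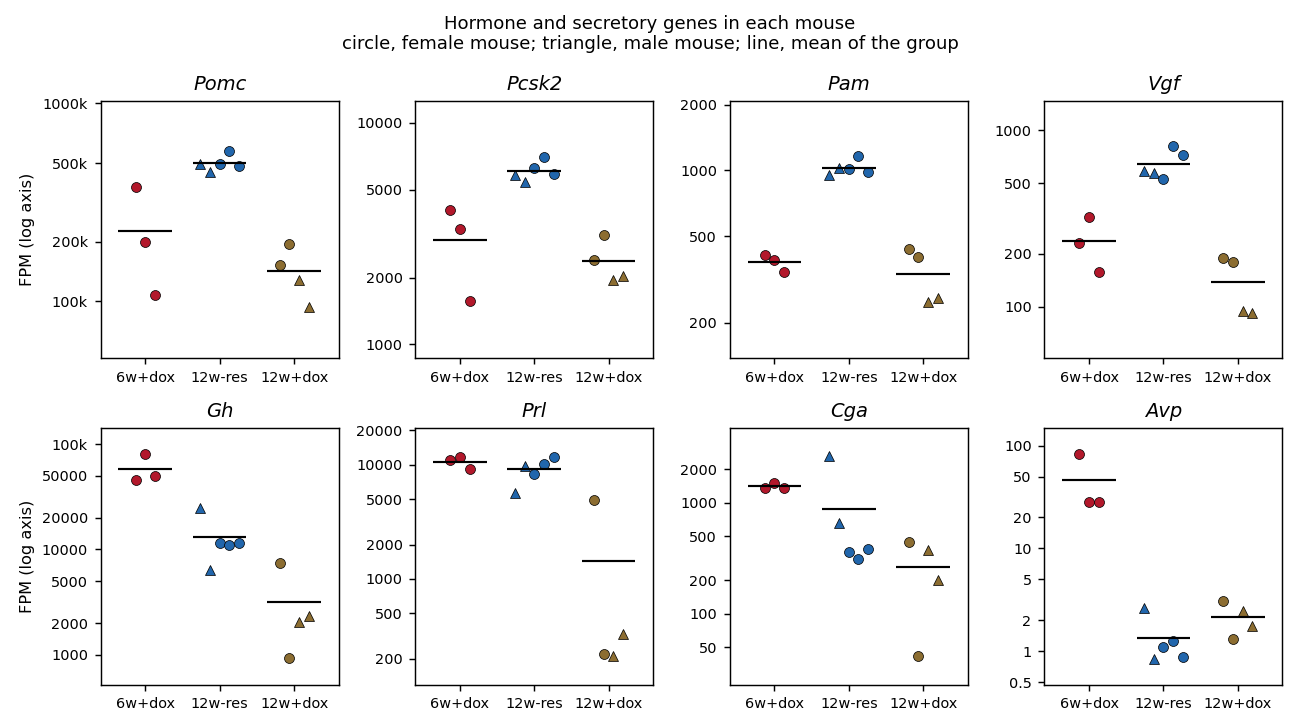
Level of 8 hormone and secretory genes in each mouse, in FPM on log axes (circles, females; triangles, males; lines, group means). Pomc, Pcsk2, Pam and Vgf are highest in the 12w-res mice, Gh lies between the 6w+dox and most 12w+dox mice, Prl overlaps with 6w+dox, Cga is spread over the 12w-res mice and Avp is low in both later groups.

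The 10 largest increases were mostly genes outside the lists. Serpinb11, a member of the clade B serpins, was at 2.5, 2.09 and 1.24 FPM in the 6w+dox mice and 169, 103, 188, 176 and 125 FPM in the 12w-res mice, a fitted difference of 62.4-fold (log2 fold change 5.96, SE 0.48, adjusted p = 7.60e-07). Hapln4, a link protein that joins hyaluronan to proteoglycans, was at 1.34, 3.38 and 1.66 FPM in the 6w+dox mice and 56.5, 97.3, 120.0, 179.8 and 169 FPM in the 12w-res mice (log2 fold change 5.54, SE 0.39, adjusted p = 2.13e-07). Col10a1, a collagen known from hypertrophic cartilage, was at 0.116, 0.223 and 0.207 FPM in the 6w+dox mice and 22.4, 15.3, 40.9, 28.4 and 37.1 FPM in the 12w-res mice (log2 fold change 5.35, SE 0.33, adjusted p = 4.72e-08), with 2 to 5 reads in each 6w+dox library, so its base level is uncertain.

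Crisp1, a cysteine-rich secretory protein, was at 58.3, 48.8 and 37.9 FPM in the 6w+dox mice and 978, 1076, 1558, 1611 and 1183 FPM in the 12w-res mice (log2 fold change 4.71, SE 0.23, adjusted p = 1.66e-08), and Gal, the neuropeptide galanin, at 1.92, 2.05 and 1.12 FPM in the 6w+dox mice and 37.8, 62.1, 30.8, 61.3 and 36.7 FPM in the 12w-res mice (log2 fold change 4.37, SE 0.35, adjusted p = 7.75e-07). Neither gene overlapped between its groups. Ly6g6c rose by 4.77 and Chil1, a chitinase-like secreted protein, by 3.92, with Chil1 at 63.0 FPM in replicate 1 and 11.6 to 25.2 FPM in the other 12w-res mice. In the mice kept on dox Serpinb11, Gal and Crisp1 had log2 fold changes of 0.14, 0.42 and 1.54, of which that of Crisp1 was a call, and Col10a1 was called higher there too (2.33). Crisp1 differed between 12w-res and 12w+dox (log2 fold change 3.16, adjusted p = 6.77e-08 in limma).

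**Figure D5:**
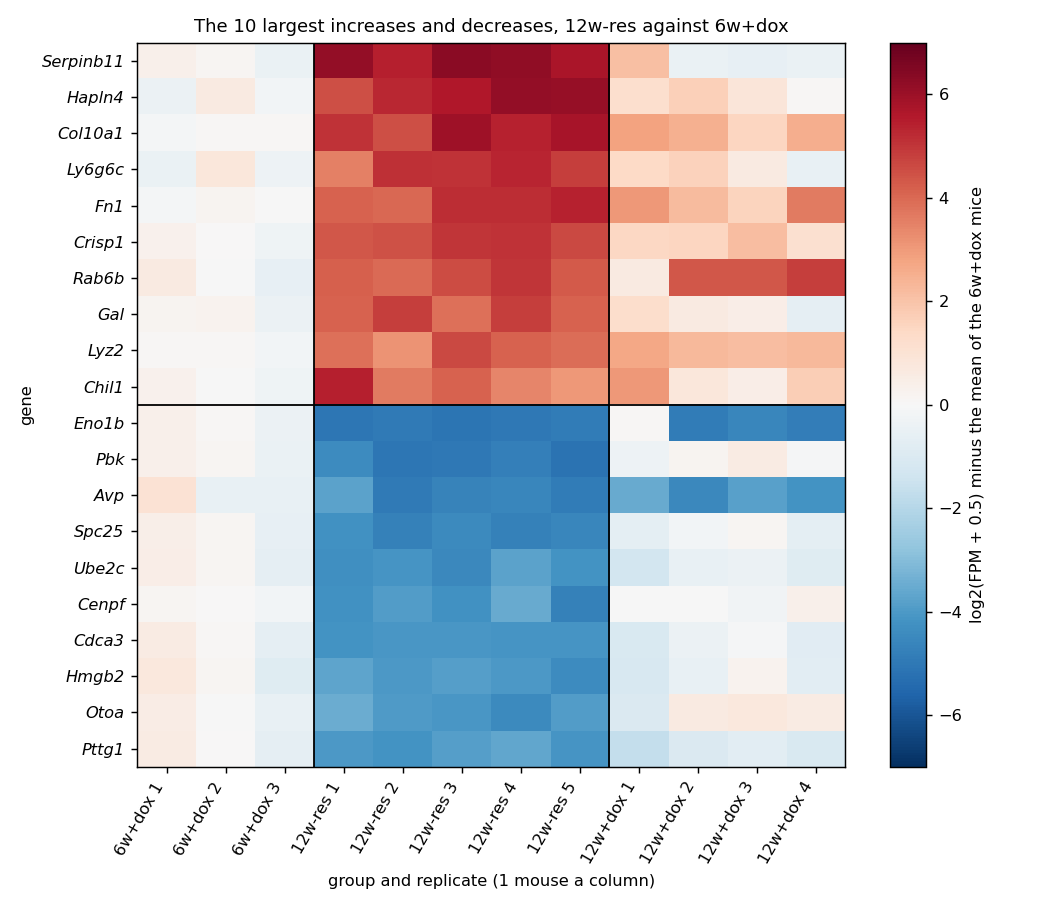
Log2(FPM + 0.5) of the 10 called genes with the largest increase and the 10 with the largest decrease in each of 12 mice, less the mean of the 6w+dox mice. The 5 columns of 12w-res are red above the line and blue below it, the mitosis genes are pale in the 12w+dox mice, and Rab6b and Eno1b differ between 12w+dox replicate 1 and the other 12w+dox mice.

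The largest decreases were, besides Avp and 6 genes of mitosis and the cell cycle already given, Hmgb2, Otoa and Eno1b. Otoa, otoancorin, was at 15.2, 10.2 and 7.20 FPM in the 6w+dox mice and 0.468, 0.211, 0.137, 0 and 0.221 FPM in the 12w-res mice (log2 fold change -3.98, SE 0.37, adjusted p = 2.92e-06). Eno1b, a close copy of the enolase gene Eno1, was at 27.3, 22.1 and 15.8 FPM in the 6w+dox mice and 0.156, 0.211, 0.137, 0.177 and 0.221 FPM in the 12w-res mice. The 12w+dox mice were split for it, at 22.1, 0.233, 0.431 and 0.251 FPM, and the counting cannot separate near-identical copies with certainty. Rab6b, the paralog of the Golgi GTPase gene Rab6a and the seventh largest increase, was at 2.97, 1.69 and 1.03 FPM in the 6w+dox mice and 41.4, 34.4, 52.3, 71.2 and 44.8 FPM in the 12w-res mice and at 2.97, 45.6, 44.9 and 64.6 FPM in the 12w+dox mice, so 12w+dox replicate 1 stood with the 6w+dox mice for both genes.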

How the data were processed

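Pituitary RNA of 12 mice of the long-term experiment was analysed, 5 12w-res, 3 6w+dox and 4 12w+dox. The values are a signal that the authors deposited as FPM. Per the study's methods, the authors used STAR without changed settings and the mm10 build for mapping, took counts per RefSeq gene, and kept genes with at least 10 reads in most samples of a condition. The authors head these values FPM from DESeq2, a unit in which that tool scales reads by size factors. The table of the short-term experiment and the GFP reporter were not used here.

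Every value was a whole multiple of what 1 read is worth in its library (100% of 183780 values within 0.1 reads), so reads were recovered. The table named 15315 genes, and 2 lines without a gene name were left out. limma 3.58.1 (R 4.3.3), with a mean-variance trend, was fitted to log2(FPM + 0.5) of all 12 mice with group as the factor, and p-values were adjusted by Benjamini-Hochberg over all genes. On the recovered counts edgeR 4.0.16 called 1043 genes higher and 1055 lower, and DESeq2 1.42.0 called 1086 and 1112. The procedure was tested on simulated data. Adjusted p-values in the text are those of limma unless another tool is named. Two-sided exact permutation tests over 56 splits were used for single genes, with a smallest p of 0.0357.

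Genes were named by a rule: genes that the study names, the 10 largest called changes in each direction without overlap and with a mean of at least 5 FPM in the higher group, up to 4 called genes of each list, and genes that define a list. The members and lists were chosen with earlier results of these data known. Promoter windows are from RefSeq, and 14634 of the 15315 gene names matched a RefSeq symbol. A few genes that the rule names are not reported here. The CHR letters were added later to the motif search. Other scalings, pseudocounts, filters, sex as a covariate, a replicate block and leaving out each mouse were tried as alternatives.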

Additional observations from a re-analysis of the deposited data

Results flagged for a closer look

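In 15 of the 120 genes named by the rule, 1 of the 5 12w-res mice stood far from the others by Dixon's criterion at 95%, which chance alone meets in about 1 in 20 groups. In 12 of the 15 genes that mouse was replicate 1, a male. Replicate 1 was high for the pituitary hormone genes Gh (24750.0 FPM, others 6381 to 11629.9), Cga (2643 FPM, others 314 to 663) and Lhb (1040.0 FPM, others 64.4 to 327). It was also high for the stress genes Trib3 (99.4 FPM, others 20.01 to 34.3) and Sesn2 (65.9 FPM, others 25.3 to 36.6), and for the immediate-early genes Egr1 (86.6 FPM, others 25.9 to 39.4) and Junb (87.8 FPM, others 42.8 to 53.2). The remaining high values of replicate 1 were Chil1 (63.0 FPM, others 11.6 to 25.2), Crhr1 (9.67 FPM, others 3.19 to 5.05), Rtp4 (6.03 FPM, others 3.60 to 3.96) and Avp (2.6 FPM, others 0.845 to 1.24). Rbl2 was low in it, at 30.2 FPM against 36.6 to 38.2 FPM.

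In replicate 2, Trp73 was high at 1.37 FPM (others 0.472 to 0.663) and Oxt was low at 0.106 FPM (others 0.945 to 1.27). In replicate 3, Mmp12 was high at 64.8 FPM (others 8.08 to 17). The call of Cga alone among these 15 genes changed when the outlying mouse was left out.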

How the results depend on the processing

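Leaving out 1 mouse at a time gave 828 to 1070 genes higher and 829 to 993 lower. Of 120 named genes 95 were called, and 84 of these kept direction and call in every alternative in which they could be tested. Scaling to total reads gave 497 higher and 1638 lower, 3 endoplasmic reticulum genes called, medians of -0.323 for p53 targets, -0.084 for prohormone genes, -0.128 for channels and -0.237 for ribosomal proteins, and log2 fold changes of -0.215 for E2f2 and -0.069 for C1qa. With no minimum fold, 2606 genes were higher and 2566 lower, with 22 endoplasmic reticulum genes and 34 interferon genes called. Fshb, at -1.51 and not called, was at 0.474 in edgeR, 0.447 in DESeq2 and 0.446 with RLE factors, none called, but was called lower with sex as a covariate (-3.31) and in females alone (-3.53), Prl was at 0.191 with sex as a covariate and Pdgfra at 0.138 in females. Without 1 mouse, the median of p53 targets ran from -0.062 to 0.036, of stem genes from -0.293 to 0.082 and of ribosomal proteins from -0.230 to 0.296, E2f2 from -0.048 to 0.282 and Pdgfra from -0.382 to 0.014. The cause was not tested. A filter on 10 reads in every sample kept 13237 genes and gave 658 and 647. With replicate number as a block the counts were 811 and 799, and 7 of the 120 genes checked lost their call. Among these were Pcsk2, Gh, Tshb and Junb (adjusted p = 0.0548, 0.0513, 0.107 and 0.0536 in limma). Deviations of mice with the same number correlated at 0.237, -0.118 and 0.0158, which cannot show whether these samples share more than a number. Depth limits genes such as Col10a1, with 2 to 5 reads in each 6w+dox library.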

Other observations

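Several gene groups moved little. Of 78 cytosolic ribosomal protein genes 1 was called higher, Rps3a1 at 2.68 on the log2 scale, which has near-identical copies that counting can confuse, and the median was 0.09. Of 77 respiratory chain genes 3 fell, with a median of -0.32, and of 37 proteasome genes 2 fell, with a median of -0.34. Of 47 voltage-gated channel genes 3 rose and 1 fell. A larger share rose among 30 glycolysis and hypoxia genes, 4 of them (13.3%, against 5.81% of all genes), while 1 fell. The median was 0.35, 25 of the 30 lay above 0, and Egln3, the oxygen sensor induced by hypoxia, rose by 2.20. Hk2, hexokinase 2, rose by 1.15, but without 6w+dox replicate 3 it was at 0.823 (adjusted p = 0.0714 in limma). In the mice kept on dox 3 of the 30 were called higher, where 3.15% of all genes were, and the median was 0.45. Egln3 (1.365) and Hk2 (1.295) were called there too. Between 12w-res and 12w+dox Egln3 differed by 0.84 and Hk2 by -0.15 on the log2 scale (adjusted p = 0.0109 and 0.733 in limma).

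Of 15 stem and folliculostellate genes 1 rose and 2 fell, with a median of -0.21. Of 10 gonadotroph genes 1 rose, Spp1, and 1 fell, Nr0b1, while 8 lay below 0 and the median was -1.25. The call of Spp1 was lost without 6w+dox replicate 2. The hormone genes Lhb and Fshb, not called here, were called lower with sex as a covariate (-2.47 and -3.31). Of the 23 lymphocyte, neutrophil and red cell genes listed 12 were tested, and 2 of them fell. Their summed level was 98.6 to 156 FPM in the 6w+dox mice, 39.2 to 97.7 FPM in the 12w-res mice and 48.0 to 65.6 FPM in the 12w+dox mice. Most of that sum was 1 gene, Thy1. It was at 78.2, 135.1 and 113.6 FPM in the 6w+dox mice and 28.0 to 77.0 FPM in the 12w-res mice. Thy1 was called lower in the mice kept on dox as well (-1.47), so the sum says little about the other members.

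Rab6b and Eno1b, singled out after their values were seen, shared a pattern among the mice kept on dox. Rab6b was at 2.97 FPM in 12w+dox replicate 1 and at 45.6, 44.9 and 64.6 FPM in the others, and Eno1b at 22.1 FPM in that mouse and at 0.233, 0.431 and 0.251 FPM in the others. The 12w-res mice lay at 34.4 to 71.2 FPM for Rab6b and at 0.137 to 0.221 FPM for Eno1b, and the 6w+dox mice at 1.03 to 2.97 FPM and at 15.8 to 27.3 FPM.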
